A study of Macaca mulatta with 4 samples.

Results

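The genes described here encode the enzymes and binding proteins that write, erase and read methyl marks on DNA and on histone lysines. They are a list of 33 symbols, and all 33 were found by that symbol among the 33618 rows of the count table. All 33 also passed the filter on low counts, which left 17693 genes for testing. RNA had been sequenced from prefrontal cortex of wild-type infant rhesus macaques, with 2 control libraries (replicates 2 and 3; agent labelled none) and 2 libraries after sevoflurane, an inhaled general anaesthetic (also replicates 2 and 3). Per the labels' protocols, the anaesthetic was given at about 2.5 to 3% for 4 hours on 3 occasions, the first near postnatal day 7 and the others 14 and 28 days later, with the cortex removed straight after the last. The sources used here do not give how control animals were handled or whether the libraries of a group came from different animals. A p-value here therefore sets a difference against the spread between libraries, which may not be the spread between animals. With 2 libraries a group, the test shares that spread across genes.

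DNA methylation is placed on cytosines by the DNMT enzymes, is copied after replication with the help of UHRF1, is oxidised by the TET enzymes as a first step of removal, and is bound by the MBD proteins. Histone lysine methylation is placed by SET-domain enzymes and removed by the KDM demethylases; at H3K4 and H3K36 it goes with active genes, and at H3K9 and H3K27 with repressed ones. The methyl groups come from S-adenosylmethionine, a product of one-carbon metabolism. In the postnatal brain, DNMT3A and the methyl readers are known for the build-up of DNA methylation in neurons as they mature.

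Total counts ranged from 7793757 in control replicate 3, the shallowest library, to 11706115 in sevoflurane replicate 3. Control replicate 3 stood apart: the component that held 50.6% of the variance placed it at -42.7, control replicate 2 at -2.56, and the sevoflurane libraries at 25.8 and 19.5. Markers of cortical tissue were present. The 8 general neuron markers summed to 6874.5 and 7970 CPM in control replicates 2 and 3 and to 8246 and 8260 CPM after sevoflurane. The 8 excitatory cortical neuron markers summed to 1740.5 and 2516 CPM in controls and to 2055 and 2155 CPM after sevoflurane. All were tested and none was called. Of 7 inhibitory neuron markers none was called (-0.62 for SST to 0.42 for PVALB on the log2 scale), nor of 5 endothelial ones (-0.15 to 0.21). Some markers of other cell types moved with the groups. Of 10 mature oligodendrocyte markers 9 were called lower after sevoflurane. The summed level of the 10 was 9294 and 14683 CPM in control replicates 2 and 3 and 2426 and 3616 CPM in sevoflurane replicates 2 and 3. Among the 7 markers of oligodendrocyte precursors 2 were called lower, OLIG2 and SOX10, and 5 were not called. All 7 had both sevoflurane libraries below both controls, with log2 fold changes from -1.41 (SOX10) to -0.14 (PDGFRA). Their summed level was 650 and 752 CPM in controls and 375 and 433 CPM after sevoflurane. Of 7 fibroblast markers SLC6A13 was called higher, at 9.08 and 9.42 CPM in controls and 29.6 and 20.3 CPM after sevoflurane. The log2 fold changes of these 7 ran from 0.67 (DCN) to 3.37 (SLC13A4), and in 4 of them both sevoflurane libraries were above both controls. Their summed level overlapped between the groups, at 215 and 103 CPM in controls and 528 and 193 CPM after sevoflurane. Of 8 astrocyte markers GFAP was lower and 7 were not called, with log2 fold changes from -0.76 (S100B) to 0.21 (ALDH1L1) and summed levels of 9392 and 7660 CPM in controls and 5504 and 5624 CPM after sevoflurane. Of 8 microglia markers CX3CR1 was lower and 7 were not called, with log2 fold changes from -0.89 (TMEM119) to 0.67 (C1QB). The complement genes C1QA (0.66), C1QB (0.67) and C1QC (0.37) among them had both sevoflurane libraries above both controls. CX3CR1 (-1.03), CSF1R (-0.41), AIF1 (-0.34) and P2RY12 (-0.33) had both below both controls. The summed level of the 8 was 364 and 329 CPM in controls and 250 and 305 CPM after sevoflurane. In these bulk libraries fewer cells of a type and less RNA per cell cannot be told apart, and the part of cell composition in the values below was not tested.

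No gene of the methylation machinery was called different after sevoflurane. By edgeR's quasi-likelihood test 0 of 33 passed an adjusted p of 0.05, where 0.599% of all tested genes passed. By DESeq2 and by limma-voom 0 of 33 passed as well, against 1.58% and 0.622% of all tested genes. At an unadjusted p under 0.05 there was 1 member, TET3, or 3.03% of the 33, where 9.92% of all genes reached that level. That count was 6 without control replicate 2 (18.2%, beside 19.6% of all genes), 2 without control replicate 3 (6.06%, beside 12.6%) and 0 without sevoflurane replicate 2 (beside 5.7%). The groups did not overlap in 11 members (33.3%), and in 41.2% of all genes. In 5 of these 11 both sevoflurane libraries were the higher ones (20.8% of all genes) and in 6 the lower ones (20.4% of all genes). Levels are given as CPM, reads scaled to a common library size by TMM (the trimmed mean of M values), and differences as log2 fold changes of sevoflurane against control. The members' median log2 fold change was 0.02, beside -0.00 over all genes, with 19 members on the positive side and 14 on the negative.

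**Figure D1:**
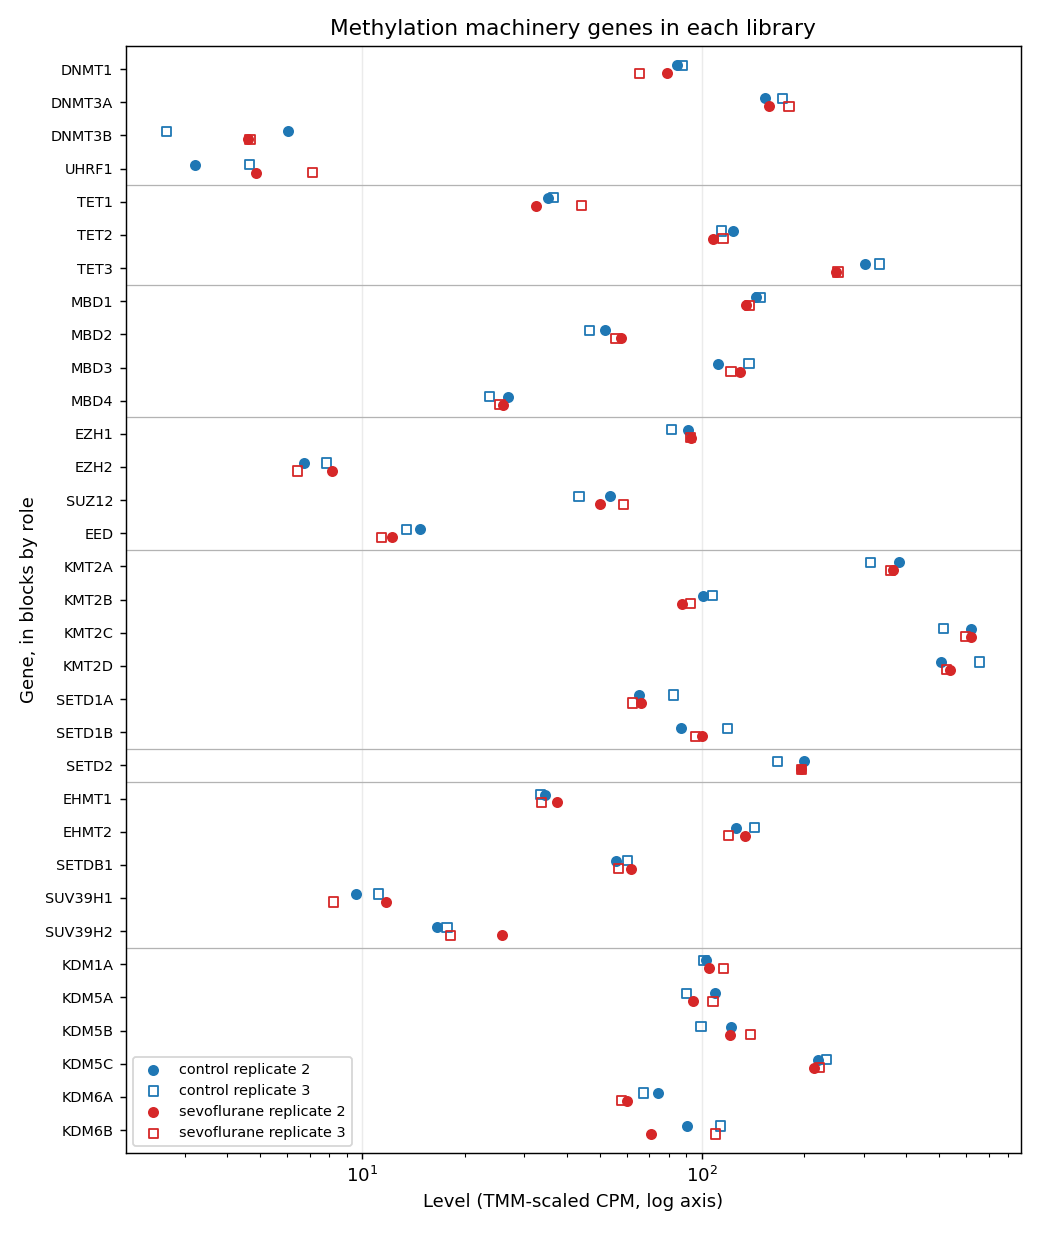
Level of each of the 33 genes in each of the 4 libraries (TMM-scaled CPM, log axis), in blocks by role; blue marks control, red sevoflurane, filled circles replicate 2 and open squares replicate 3. In 22 genes the red and blue marks overlap in range, and in the other 11, TET3 among them, they do not.

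The estimates were narrow for most members. The 95% interval of the log2 fold change lay within 2-fold in either direction for 31 of 33 members (93.9%), beside 62.4% of all genes tested and 81.9% of the 13185 tested genes whose mean CPM fell within the members' range. It lay within 1.5-fold for 23 members (69.7%), beside 31.8% of all genes tested and 41.4% of those within the range. That range was not matched on level: the median of the mean CPM was 96.0 for the members and 28.9 for the genes within it. The 2 members whose interval reached past 2-fold were UHRF1 and DNMT3B, which also had the fewest reads. The smallest change of any called gene in the table was 0.74 on the log2 scale, and the largest value of a member was 0.62. With 2 libraries a group, any difference within a member's interval remained possible, so a member that was not called was not shown to be unchanged.

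**Figure D2:**
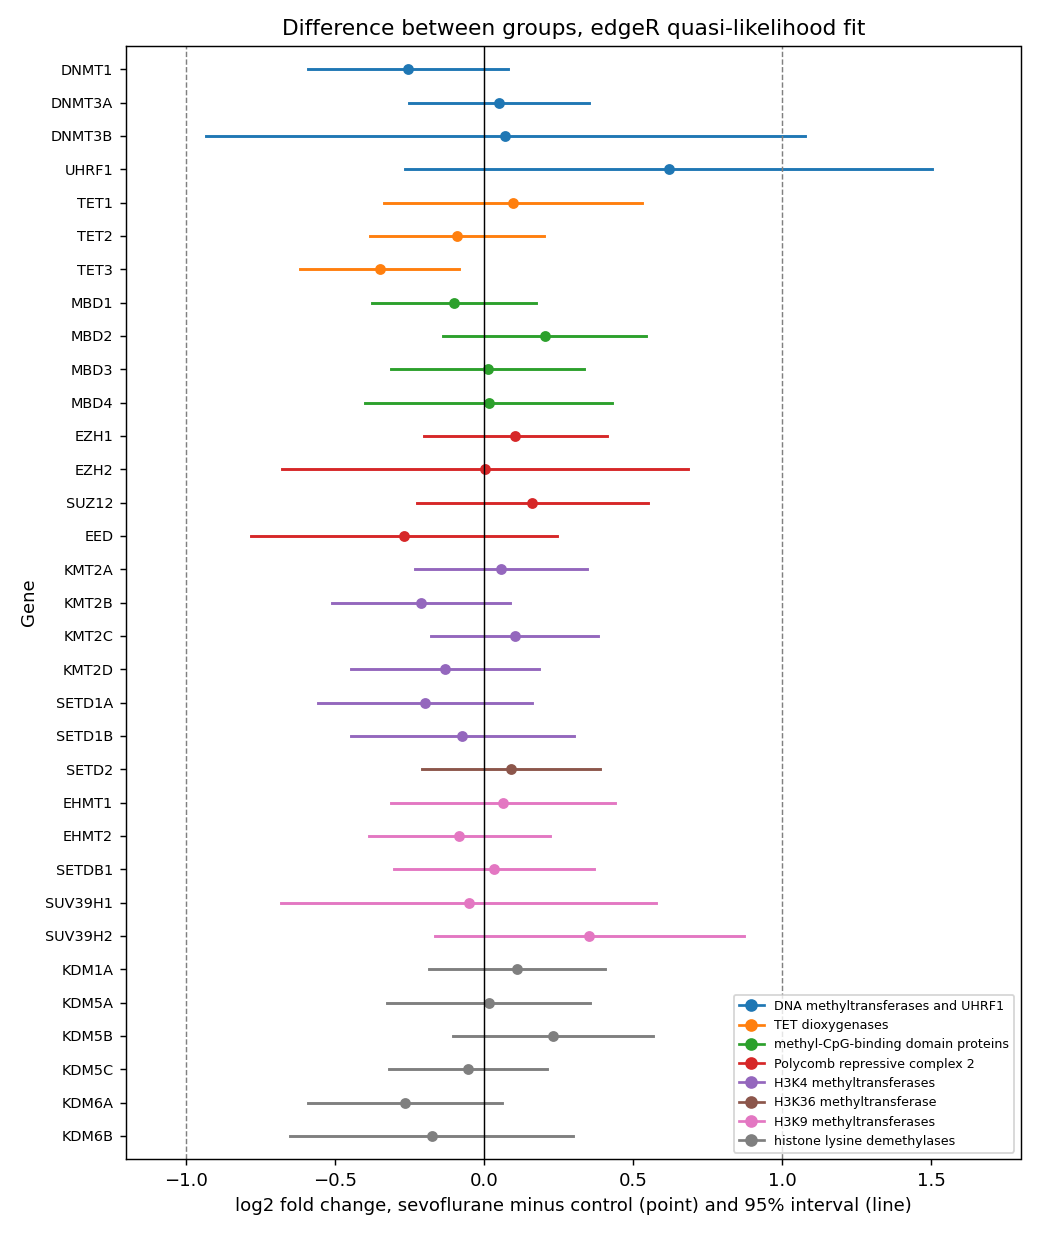
log2 fold change of sevoflurane against control for each gene (point) with its 95% interval (line), coloured by role; dashed lines mark a 2-fold difference. The intervals of 31 of 33 genes stay inside the dashed lines, those of UHRF1 and DNMT3B cross the upper line, and that of TET3 is the one that does not include 0.

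Among the DNA methyltransferases, DNMT1, the maintenance enzyme that copies methylation to the new strand, had 84.5 and 87.8 CPM in control replicates 2 and 3 and 79.1 and 65.4 CPM in sevoflurane replicates 2 and 3. Both sevoflurane libraries were below both controls, but they lay further from each other than the nearer of them did from the controls. The log2 fold change was -0.25 (SE 0.15, 95% interval -0.59 to 0.08, adjusted p = 0.652), with -0.12 when sevoflurane replicate 3 was left out and -0.40 when sevoflurane replicate 2 was. DNMT3A, the main de novo methyltransferase of neurons, had 153 and 173 CPM in controls and 157 and 181 CPM after sevoflurane. In each group replicate 3 was the higher library and the ranges overlapped, with 0.05 between the groups (SE 0.13, interval -0.25 to 0.35, adjusted p = 0.944). DNMT3B, the other de novo enzyme, most active in early embryos, was counted with 62 and 20 reads in control replicates 2 and 3 and with 54 and 55 reads in the sevoflurane libraries. Its control libraries lay on either side of the sevoflurane pair, at 6.05 and 2.65 CPM around 4.61 and 4.67 CPM. The groups differed by 0.07 on the log2 scale, with an interval from -0.93 to 1.08. Leaving out control replicate 3 gave -0.38, and leaving out control replicate 2 gave 0.80.

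UHRF1, which brings DNMT1 to newly replicated DNA, had the largest value of the 33. It was counted with 33, 35, 57 and 84 reads, or 3.22 and 4.64 CPM in controls and 4.87 and 7.13 CPM after sevoflurane. Both sevoflurane libraries were above both controls, yet sevoflurane replicate 2 was close to control replicate 3. The log2 fold change was 0.62 (SE 0.39, adjusted p = 0.679), its interval as a ratio reached from 0.833 to 2.83, and it ran from 0.32 to 0.89 as single libraries were left out. UHRF1 and DNMT1 are textbook genes of cycling cells. The summed level of 10 markers of dividing cells was 56.6 and 49.6 CPM in controls and 41.0 and 43.2 CPM after sevoflurane, none of the 10 was called, and the part of dividing cells in these values was not tested.

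The TET enzymes oxidise methylcytosine to hydroxymethylcytosine, a mark abundant in neurons. TET3 had 303 and 334 CPM in control replicates 2 and 3 and 248 and 252 CPM in sevoflurane replicates 2 and 3. The sevoflurane libraries were nearly alike and both lay below the lower control. Mean levels were 319 ± 21.4 CPM in controls and 250.0 ± 2.70 CPM after sevoflurane (SD, n = 2 in each), which is -0.35 on the log2 scale (SE 0.12, interval -0.62 to -0.08). Its unadjusted p by edgeR was 0.0153, the smallest of the members, and its adjusted p over all genes was 0.331, so TET3 was not called. The value stayed between -0.42 and -0.28 with any 1 library left out. Other settings with all 4 libraries gave adjusted p-values from 0.27 (likelihood ratio test) to 0.469 (edgeR's quasi-likelihood test without the low-count filter). TET1 had 35.1 and 36.6 CPM in controls and 32.4 and 44.3 CPM after sevoflurane, so the sevoflurane pair enclosed the controls (0.10, SE 0.19, adjusted p = 0.927). TET2 had 123 and 114 CPM in controls and 108 and 115 CPM after sevoflurane, with overlapping groups (-0.09, SE 0.13, adjusted p = 0.892). Whether TET3 differed from TET1 and TET2 in its response was not tested.

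Of the methyl-CpG-binding domain proteins, MBD1, a repressor that binds methylated promoters, had 144 and 148 CPM in controls and 135 and 139 CPM after sevoflurane (log2 fold change -0.10, SE 0.12, adjusted p = 0.862). MBD2, the methyl-binding subunit of the NuRD repressor complex, had 51.7 and 46.7 CPM in controls and 57.7 and 55.8 CPM after sevoflurane (0.20, SE 0.15, adjusted p = 0.738). In both genes the groups did not overlap, in opposite directions, and the difference was larger than that between replicates of either group. MBD3, a NuRD subunit that binds methylated DNA poorly, had 0.01 (SE 0.14), with control replicates 2 and 3 at 112 and 138 CPM on either side of the sevoflurane pair. MBD4, a glycosylase that repairs deaminated methylcytosine, had 0.02 (SE 0.18), with 25.3 ± 2.26 CPM in controls and 25.7 ± 0.306 CPM after sevoflurane. The intervals of all 4 MBD genes lay within 1.5-fold.

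Polycomb repressive complex 2 methylates H3K27 and holds developmental genes silent. Its catalytic subunits have different known settings, EZH2 in dividing precursors and EZH1 in mature cells. EZH2 was counted with 69, 59, 95 and 76 reads, which gave 6.73 and 7.82 CPM in controls and 8.12 and 6.45 CPM after sevoflurane. The groups overlapped fully and differed by 0.00 on the log2 scale (SE 0.30, interval -0.68 to 0.68, adjusted p = 0.998). EZH1 had 90.9 and 81.6 CPM in controls and 92.9 and 92.8 CPM after sevoflurane (0.11, SE 0.14, adjusted p = 0.874). The core subunit EED, which reads the mark that the complex writes, had 14.8 and 13.5 CPM in controls and 12.2 and 11.4 CPM after sevoflurane. Both sevoflurane libraries were the lower ones, with -0.27 (SE 0.23, adjusted p = 0.781). SUZ12, the scaffold of the core, had 53.7 and 43.5 CPM in controls and 50.1 and 58.8 CPM after sevoflurane, with overlapping groups (0.16, SE 0.17, adjusted p = 0.837). That value ran from 0.021 with control replicate 3 left out to 0.32 with control replicate 2 left out.

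The H3K4 methyltransferases are the KMT2 and SETD1 enzymes, of which KMT2A and KMT2B act at promoters of selected genes, KMT2C and KMT2D at enhancers, and SETD1A and SETD1B at promoters broadly. None of the 6 was called, and their log2 fold changes ran from -0.21 to 0.10. KMT2B had 101 and 108 CPM in controls and 87.4 and 92.7 CPM after sevoflurane, the one of the 6 whose groups did not overlap (-0.21, SE 0.13, adjusted p = 0.679). KMT2C had 619 and 516 CPM in control replicates 2 and 3 and 622 and 598 CPM after sevoflurane (0.10, SE 0.12). KMT2D, its close paralog, had 507 and 659 CPM in control replicates 2 and 3 and 540.0 and 526 CPM after sevoflurane (-0.13, SE 0.14). Control replicate 3 was thus the lowest library for KMT2C and the highest for KMT2D, while the other 3 libraries lay close together in each. Without it both signs turned, to -0.02 for KMT2C and 0.07 for KMT2D. KMT2A followed KMT2C, with 381 and 315 CPM in controls and 365 and 359 CPM after sevoflurane (0.06, SE 0.13). SETD1A (-0.20, SE 0.16) and SETD1B (-0.07, SE 0.17) followed KMT2D, at 82.3 and 119 CPM in control replicate 3 and at 62.4 to 66.2 and 87.0 to 99.9 CPM in the other libraries. For SETD1A the difference was -0.026 with control replicate 3 left out. SETD2, the enzyme of H3K36 trimethylation along transcribed genes, had 201 and 167 CPM in controls and 195 and 197 CPM after sevoflurane (0.09, SE 0.13, adjusted p = 0.892).

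The H3K9 methyltransferases include EHMT1 and EHMT2, partners in dimethylation within euchromatin, and SETDB1, SUV39H1 and SUV39H2, which serve heterochromatin and repeat silencing. EHMT1 had 34.0 ± 0.634 CPM in controls and 35.6 ± 2.64 CPM after sevoflurane (0.06, SE 0.17), EHMT2 135 ± 11.7 and 127 ± 10.2 CPM (-0.08, SE 0.13), and SETDB1 58.1 ± 3.36 and 59.4 ± 3.66 CPM (0.03, SE 0.15). In each of these 3 genes the groups overlapped. SUV39H2 had 16.6 and 17.8 CPM in controls and 25.7 and 18.2 CPM in sevoflurane replicates 2 and 3. One sevoflurane library was high and the other was next to the controls, and the log2 difference was 0.35 (SE 0.23, interval -0.16 to 0.87, adjusted p = 0.691). It became 0.08 when sevoflurane replicate 2 was left out and 0.58 when sevoflurane replicate 3 was. SUV39H1, its paralog, had 9.56 and 11.1 CPM in controls and 11.7 and 8.23 CPM after sevoflurane (-0.05, SE 0.28), again with sevoflurane replicate 2 the higher of its pair.

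Among the demethylases, KDM6A and KDM6B remove H3K27 methylation, the opposite of Polycomb. KDM6A, the broadly expressed X-linked enzyme, had 74.1 and 67.5 CPM in controls and 60.1 and 57.9 CPM after sevoflurane. Both sevoflurane libraries were below both controls by more than the replicates differed, with -0.26 (SE 0.14, interval -0.59 to 0.06, adjusted p = 0.623). KDM6B, a gene inducible by many stimuli, had 90.5 and 113 CPM in controls and 70.7 and 110 CPM in sevoflurane replicates 2 and 3. Replicate 3 was the higher library in both groups, and the groups overlapped (-0.18, SE 0.21, adjusted p = 0.86). Leaving out sevoflurane replicate 2 gave 0.11, and leaving out sevoflurane replicate 3 gave -0.53. Of the H3K4 demethylases, KDM1A, a subunit of the CoREST complex, had 103 and 101 CPM in controls and 105 and 116 CPM after sevoflurane (0.11, SE 0.13, adjusted p = 0.858). KDM5B had 121 and 99.5 CPM in controls and 121 and 139 CPM after sevoflurane (0.23, SE 0.15, adjusted p = 0.684), with one sevoflurane library just below the higher control. It was 0.096 with control replicate 3 left out and 0.38 with control replicate 2 left out. KDM5A (0.02, SE 0.15) and the X-linked KDM5C (-0.05, SE 0.12) overlapped between the groups. KDM6A and KDM5C have Y-linked paralogs, UTY and KDM5D, and both of these had 0 reads in all 4 libraries, where a count of 0 allows a level of up to 0.255 to 0.398 CPM (3 reads, counting error only).

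Differences between replicates were as large as those between groups in most members. The group difference exceeded the difference between replicates of each group in 7 of 33 members (21.2%), beside 30.2% of all genes tested. These 7 were UHRF1, TET3, MBD1, MBD2, EED, KMT2B and KDM6A. The control pair differed more than the sevoflurane pair in 21 of 33 members. Its median absolute difference was 0.18 on the log2 scale, against 0.10 for the sevoflurane pair, and over all genes these were 0.28 and 0.18. In 13 members the control libraries differed by over 0.25. Control replicate 3 was lower in 7 of these (DNMT3B, SUZ12, KMT2A, KMT2C, SETD2, KDM5A and KDM5B) and higher in 6 (UHRF1, MBD3, KMT2D, SETD1A, SETD1B and KDM6B). In 7 members the sevoflurane pair differed by over 0.25, and UHRF1 and KDM6B were in both sets.

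**Figure D3:**
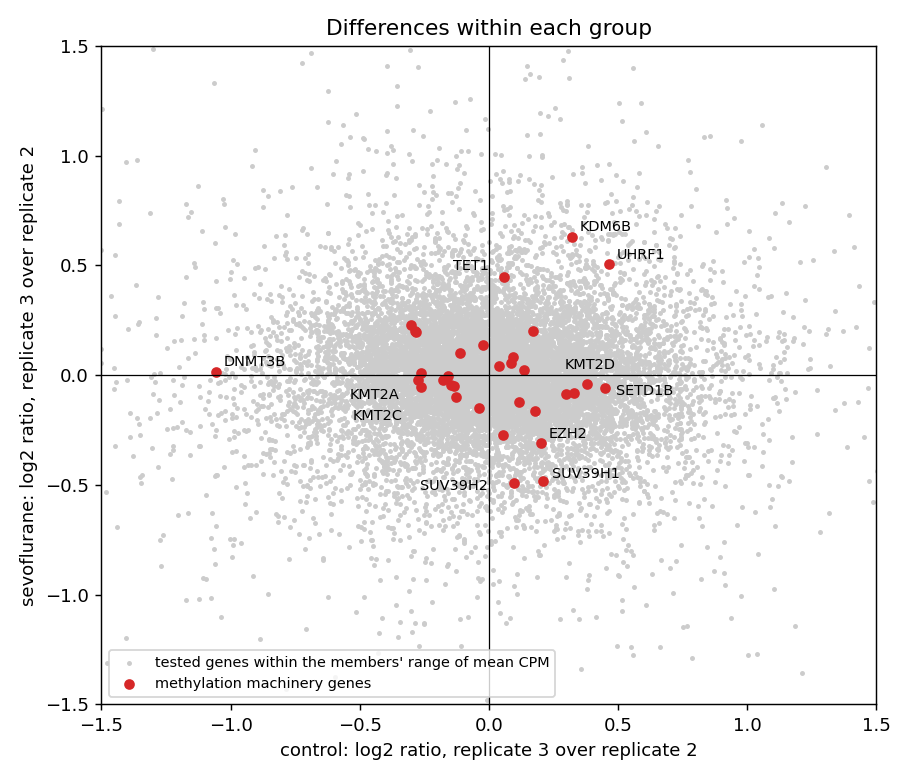
log2 ratio of replicate 3 over replicate 2 in the control group (horizontal) and the sevoflurane group (vertical) for the 33 genes (red) and for tested genes within their range of mean CPM (grey; 112 genes beyond 1.5 on an axis are not drawn). DNMT3B stands at -1.06 in the control pair, KMT2D and SETD1B to the right of 0 and KMT2A and KMT2C to the left, while the sevoflurane pair is near 0 for these 5.

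The rest of the pathway was read from 6 lists of 93 further genes, of which 91 were matched and 88 tested. None of the 88 was called by edgeR, DESeq2 or limma-voom, and 5 (5.68%) had an unadjusted p under 0.05 by edgeR, beside 9.92% of all genes. The list medians were -0.01 for 13 other DNA methylation genes, -0.01 for 22 Polycomb partners and 0.03 for 13 other lysine methyltransferases. They were 0.10 for 17 other lysine demethylases and cofactors and 0.02 for 11 genes of S-adenosylmethionine supply. For 12 genes listed under H3K4 methyltransferase complexes, among them the KMT2 relative KMT2E, the median was -0.10. DNMT3L, HELLS and BHMT were under the filter.

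CXXC4, a protein with a CpG-binding domain related to that of TET proteins, had the smallest p of the 88. It had 52.5 and 67.2 CPM in controls and 81.3 and 102 CPM after sevoflurane, with both sevoflurane libraries above both controls (log2 fold change 0.62, SE 0.18, adjusted p = 0.239). MBD6, a member of the MBD family, had 31.4 and 29.3 CPM in controls and 22.3 and 21.3 CPM after sevoflurane (-0.48, SE 0.18, adjusted p = 0.401). DOT1L, the H3K79 methyltransferase, had 76.5 and 91.6 CPM in controls and 67.3 and 58.1 CPM after sevoflurane (-0.42, SE 0.16, adjusted p = 0.398). KMT2E, a relative of the KMT2 enzymes, had 223 and 194 CPM in controls and 235 and 296 CPM after sevoflurane (0.35, SE 0.15, adjusted p = 0.479). These 4 genes were named for their small p, and their groups did not overlap. The same held for 32 of the 88 (36.4%) and for 41.2% of all genes. The adjusted p-values of the 4 were all above the threshold.

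KDM4D, a H3K9 demethylase with near copies in primates whose reads the counting could have split, was counted with 22, 18, 62 and 58 reads under its RefSeq gene number (1.17, SE 0.41, adjusted p = 0.356). KDM4B, of the same family, had 0.38 (SE 0.17, adjusted p = 0.533). The Polycomb partners with the smallest p were RBBP7, a histone-binding subunit, at 0.30 (adjusted p = 0.608), and MTF2, which guides the complex to CpG islands, at 0.23 (adjusted p = 0.692). RBBP5, a shared subunit of the H3K4 complexes, had -0.28 (adjusted p = 0.636), and the methyltransferase SMYD2 had 0.32 (adjusted p = 0.669). For methyl supply, MAT2A, the S-adenosylmethionine synthetase of most tissues, had 241 and 192 CPM in controls and 176 and 196.5 CPM after sevoflurane, with overlapping groups (-0.22, SE 0.14, adjusted p = 0.697). AHCYL1, a relative of the enzyme that clears the product of methyl transfer, had -0.18 (SE 0.12, adjusted p = 0.703).

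**Figure D4:**
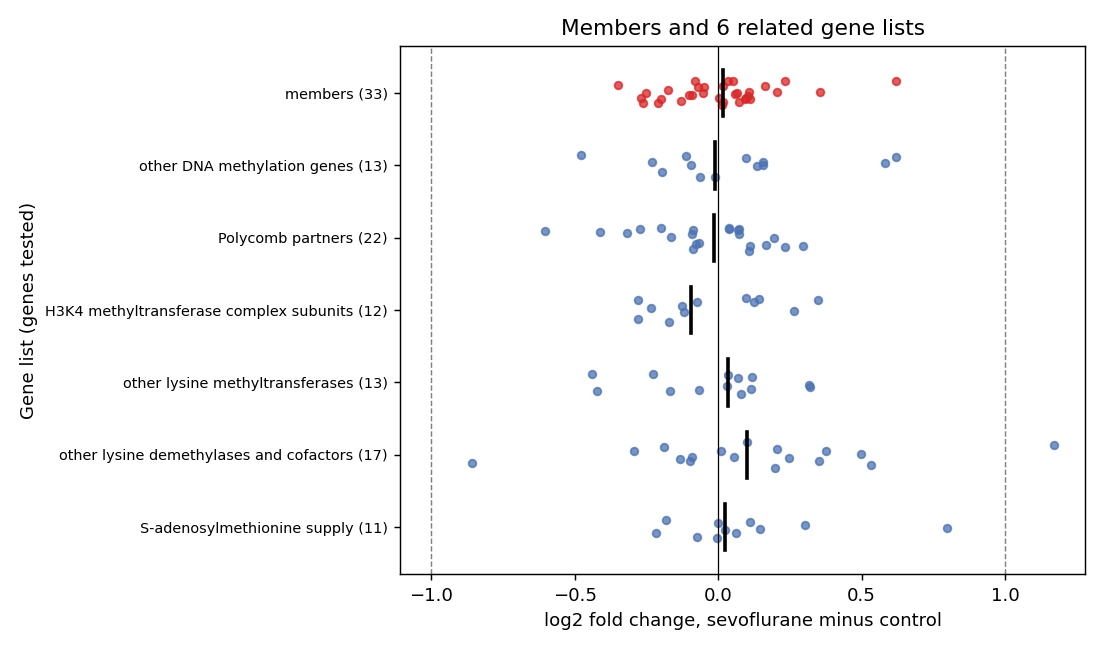
log2 fold change of sevoflurane against control for the 33 members (red) and the tested genes of 6 related lists (blue), with the number tested in brackets; black bars are medians and dashed lines a 2-fold difference. The medians lie between -0.10 and 0.10, and KDM4D at 1.17 is the one gene past the dashed lines.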

How the data were processed

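Per the submitters' processing notes, reads were aligned with HISAT2. The sources used here do not give its version, the counting program, genome build, annotation or strand setting. The authors deposited raw counts per gene, 1 column for each of 4 libraries. These were tested with edgeR 4.0.16 under R 4.3.3: filterByExpr, TMM scaling and the two-sided quasi-likelihood test with group as the only term, fitted to all 17693 genes that passed the filter, with Benjamini-Hochberg adjustment over all of them and calls at an adjusted p under 0.05. The SE is the absolute log2 fold change over the square root of F, and intervals use the fit's degrees of freedom. Ratios between replicates add 0.5 CPM. With 2 libraries against 2, the smallest two-sided exact p is 0.333, so single values were not tested that way. Alternatives were run with DESeq2 1.42.0 and limma 3.58.1 among others. The analysis was tested on simulated data. Members and lists were chosen with earlier results of these data known. Of the listed pathway genes, 4 were matched by RefSeq gene number or synonym and 2 (NSD2 and NSD3) were not matched. All members are named, and from each pathway list the called genes and the 2 with the smallest p. Levels were not compared between genes, since no transcript lengths were used. Sequences were not used here.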

Additional observations from a re-analysis of the deposited data

How the results depend on the processing

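No member was called under any of 13 alternatives, among them the replicate block and an adjusted p of 0.1. The lowest adjusted p of a member with all 4 libraries was 0.27, for TET3 by the likelihood ratio test. With all 4 libraries no member changed sign. The members' median ran from -0.033 to 0.031 with 1 library left out. From 0 to 6 members then had an unadjusted p under 0.05, beside 5.7% to 19.6% of all genes. In 19 to 27 members (57.6% to 81.8%) the groups, then 2 libraries against 1, did not overlap, beside 64.5% to 78.7% of all genes. Over all genes, 95 were called lower and 11 higher in the main fit. These counts were 57 and 3 with no filter, 219 and 60 by DESeq2 and 103 and 7 by limma-voom. They were 304 and 137 by the likelihood ratio test, 341 and 170 with the replicate block and 170 and 33 at an adjusted p of 0.1. With 1 library left out there were 118 to 232 lower and 27 to 81 higher. Deviations of same-numbered libraries had a correlation of 0.01 across genes, and the number was not taken as a pairing. A correlation over all genes cannot exclude a replicate difference shared by some of them. The summed fibroblast markers, for instance, were lower in replicate 3 of both groups. In 17 members the sign changed when 1 library was left out. DNA methylation genes then ran from -0.050 to 0.15 (DNMT3A), -0.38 to 0.80 (DNMT3B), -0.15 to 0.31 (TET1), -0.13 to 0.17 (MBD3) and -0.070 to 0.11 (MBD4). H3K4 and H3K36 enzymes ran from -0.074 to 0.20 (KMT2A), -0.021 to 0.24 (KMT2C), -0.31 to 0.072 (KMT2D), -0.28 to 0.17 (SETD1B) and -0.033 to 0.23 (SETD2). H3K9 and H3K27 enzymes ran from -0.17 to 0.16 (EZH2), -0.013 to 0.14 (EHMT1), -0.17 to 0.0084 (EHMT2), -0.030 to 0.096 (SETDB1) and -0.33 to 0.18 (SUV39H1). Demethylases ran from -0.12 to 0.17 (KDM5A) and -0.53 to 0.11 (KDM6B). Of the 16 that kept their sign, 11 moved by over 1.5 times: DNMT1 (-0.40 to -0.12), UHRF1 (0.32 to 0.89), TET2 (-0.14 to -0.035), MBD2 (0.13 to 0.28), EZH1 (0.030 to 0.19), SUZ12 (0.021 to 0.32), SETD1A (-0.36 to -0.026), SUV39H2 (0.081 to 0.58), KDM1A (0.041 to 0.18), KDM5B (0.096 to 0.38) and KDM5C (-0.098 to -0.0097). The cause of these moves was not tested. UHRF1, DNMT3B, EZH2, SUV39H1 and EED had 20 to 152 reads in a library.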
